A study of Drosophila melanogaster with 33 samples.

Results

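The larval midgut of Drosophila melanogaster was compared between 4 h and 18 h before puparium formation (BPF), an interval of 14 h at the end of the third larval instar. The series followed midgut RNA of the wild-type strain Canton S over 11 stages that ran up to 12 h after puparium formation, with 3 two-colour arrays per stage and 33 arrays in all. The comparison used the 3 arrays titled 4 h BPF and the 3 arrays titled 18 h BPF, taken by the stage in their titles. Both stages came from the same strain and tissue, and neither carried a mutation or a treatment. The next stage, 0 h (puparium formation, also 3 arrays), was set beside them where a later value was needed. Replicate arrays held independent samples per the labels. The sources used here do not give the number of animals in a sample or their sex.

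On each array the amplified RNA of a stage, labelled with Cy5, was hybridised against a Cy3-labelled reference, a mixture of 10 of the stages that included both stages compared. A value is the log2 ratio of stage to reference, so 0 is the level of a gene in that mixture, and values of different genes do not rank their abundance. Of 14064 probes with any value, 12180 had at least 2 values at each stage and were tested, and 5395 of them had a value on all 6 arrays. The 6785 probes with exactly 2 values at the less complete stage had a median absolute change of 0.21 on the log2 scale, and the 1844 probes with 1 value there, which were not tested, had 0.22.

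In the last larval instar the midgut epithelium digests food, absorbs nutrients and acidifies or alkalinises stretches of the lumen. Feeding stops before puparium formation, and the steroid hormone 20-hydroxyecdysone, which acts through the receptor pair EcR and usp, starts the larval-to-prepupal transition. The larval epithelium is later removed by a process that needs autophagy, while diploid progenitor cells build the adult gut.

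The 4 h BPF arrays held 7254, 12902 and 13614 values (a, b and c), and the 18 h BPF arrays held 9780, 11566 and 13966. Array medians lay between -0.02 and 0.04, and no 2 arrays were duplicates. Pearson correlations over probes were 0.70 to 0.80 within 4 h BPF, 0.73 to 0.77 within 18 h BPF and 0.48 to 0.60 between the stages. Array a of 4 h BPF, with the fewest values, correlated at 0.77 with array a of 0 h and at 0.74 and 0.70 with arrays b and c of its own stage, so its part in the main counts is given below. Ratios to a mixture of the same tissue cannot show whether a tissue marker is present or absent, and only changes of the markers are given.

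Gene expression in the midgut differed widely between the stages. In the moderated test of limma 751 of 12180 probes (6.17%) passed an adjusted p of 0.05, with 409 higher (3.36%) and 342 lower (2.81%) at 4 h BPF than at 18 h BPF. The falls were the larger changes: 261 probes fell and 222 rose by at least 2-fold, and 55 fell and 20 rose by at least 4-fold. Over named genes, each represented by 1 probe, 568 of 8646 were called (6.57%), 302 higher (3.49%) and 266 lower (3.08%). For every gene list below, the counts of calls stand against these shares. In 2582 named genes (29.9%) the values of the 2 stages did not overlap. Leaving out array a of 4 h BPF left 528 probes called. In bulk tissue, fewer cells of a type and less RNA per cell cannot be told apart. Of the 568 called genes 101 belong to the 42 gene lists described below, which hold 636 of the 8646 named genes tested. Of the 101, 29 kept their call under each of the 15 alternative settings that gave them a value.

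**Figure D1:**
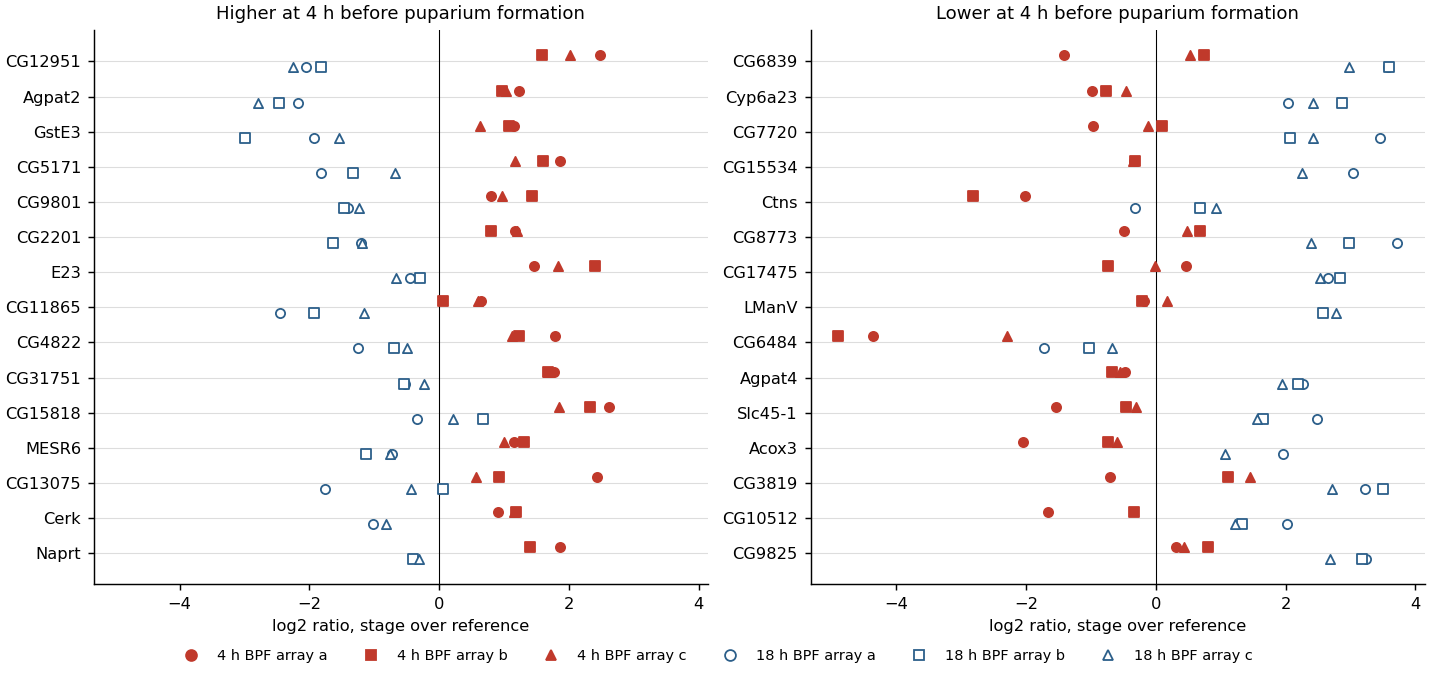
Log2 ratio of stage over reference on each array (x axis) for the 15 largest rises (left) and the 15 largest falls (right) among called genes whose arrays did not overlap between the stages. Filled red symbols are the 4 h BPF arrays and open blue symbols the 18 h BPF arrays, with 1 symbol shape per array letter. CG12951 and CG6839, with changes of 4.07 and -3.43, lead the panels.

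The largest rises included enzymes of phospholipid and sphingolipid metabolism, a glutathione transferase and 2 ABC transporters. CG12951, which encodes a trypsin-like serine protease, had log2 ratios of 2.48, 1.58 and 2.02 on the 4 h BPF arrays, against -2.05, -1.82 and -2.26 on the 18 h BPF arrays. Its change of 4.07 ± 0.45 (SE, adjusted p = 6.42e-07) was the largest rise. Agpat2, an acyltransferase of phospholipid synthesis, stood at 1.23, 0.97 and 1.04 at 4 h BPF, against -2.18, -2.47 and -2.79 at 18 h BPF (change 3.56 ± 0.27, adjusted p = 1.6e-09). The 3 arrays of each stage lay close together for this gene. GstE3, a glutathione transferase, had 1.15, 1.08 and 0.63 at 4 h BPF, against -1.93, -2.99 and -1.55 at 18 h BPF (change 3.11 ± 0.30, adjusted p = 3.27e-07).

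Further genes with known products followed with smaller steps. CG5171, which encodes a trehalose-phosphatase, rose by 2.81 ± 0.38, and CG2201, a choline kinase-like gene, by 2.40 ± 0.20. The choline kinase-like gene had the smaller error, with 1.17, 0.80 and 1.20 at 4 h BPF, against -1.20, -1.64 and -1.19 at 18 h BPF. E23, an ABC transporter gene known to be induced by ecdysone, stood at 1.46, 2.40 and 1.83 at 4 h BPF, against -0.45, -0.29 and -0.66 at 18 h BPF (change 2.37 ± 0.42, adjusted p = 0.000463). All of its 4 h BPF arrays were above all of its 18 h BPF arrays. CG11865, an astacin-type metalloprotease, rose by 2.28 ± 0.52, the ceramide kinase Cerk by 2.01 ± 0.27, and Naprt, the nicotinate phosphoribosyltransferase of NAD synthesis, by 1.99 ± 0.28. Naprt had only 2 values per stage, 1.87 and 1.40 at 4 h BPF, against -0.40 and -0.30 at 18 h BPF. CG4822, another ABC transporter gene, rose by 2.20 ± 0.42 on its more complete probe, whereas its other probe changed by 0.27 and did not pass the test.

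The largest falls included nuclease-like genes, a lysosomal mannosidase, transporters, a cytochrome P450, an acyltransferase, peptidases and enzymes of lipid breakdown. CG6839, which encodes a protein with a DNA/RNA non-specific endonuclease domain, had log2 ratios of -1.41, 0.74 and 0.53 at 4 h BPF, against 3.58, 3.60 and 2.98 at 18 h BPF (change -3.43 ± 0.49, adjusted p = 2.41e-05). Array a of 4 h BPF was the lowest of the 6, and arrays b and c also lay far below the 18 h BPF arrays. Cyp6a23, a cytochrome P450, had -0.99, -0.77 and -0.46 at 4 h BPF, against 2.04, 2.87 and 2.43 at 18 h BPF (change -3.19 ± 0.50). Agpat4, of the same acyltransferase family as Agpat2, moved the opposite way, with -0.47, -0.67 and -0.55 at 4 h BPF, against 2.28, 2.20 and 1.94 at 18 h BPF (change -2.70 ± 0.43, adjusted p = 0.000118). Its other tested probe changed by -2.03.

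Genes of the lysosome and of transport stood among them. Ctns, the lysosomal cystine exporter, fell by 2.85 ± 0.35, and the lysosomal mannosidase gene LManV fell by 2.75 ± 0.70. LManV had -0.17, -0.21 and 0.17 at 4 h BPF, against 2.58 and 2.78 on the 2 arrays of 18 h BPF with a value. The sugar transporter gene Slc45-1 fell by 2.66 ± 0.38, and the acyl-CoA oxidase gene Acox3, of peroxisomal fatty acid breakdown, by 2.64 ± 0.35. CG15534, which encodes a sphingomyelin phosphodiesterase, fell by 2.98 ± 0.51, with nearly equal 4 h BPF arrays (-0.34, -0.32 and -0.35), against 3.04 and 2.25 at 18 h BPF. The aminopeptidase gene CG8773 and the trypsin-like gene CG17475 changed by -2.80 ± 0.76 and -2.77 ± 0.54 and passed the test. Of the 30 leading genes, 24 remained called without array a of 4 h BPF and 3 had too few values then. CG15818, CG13075 and CG8773 lost the call, at 1.91, 1.45 and -2.44.

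**Figure D2:**
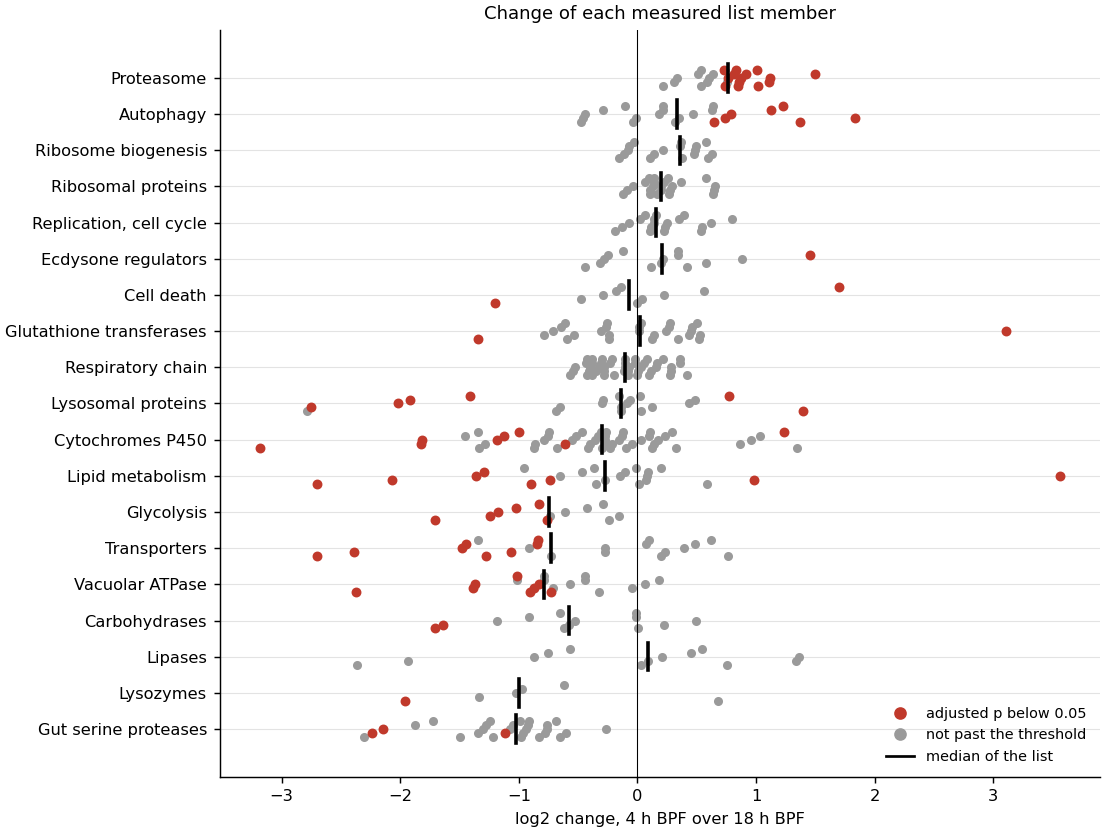
Log2 change of 4 h BPF over 18 h BPF (x axis) for each tested member of 19 gene lists. Red points passed the adjusted p of 0.05, grey points did not, and the black bar is the median of the list; all 24 proteasome genes lie right of 0 and all 28 gut serine protease genes left of it.

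Genes of the proteasome, the complex that degrades ubiquitin-tagged proteins, rose, with more calls than any other of the 42 lists. All 24 tested genes had a positive change, 14 passed the test and none fell, against 3.49% of all named genes that rose, and the median change was 0.76, against -0.01 over all named genes. Both parts of the complex took part. In the regulatory particle, which recognises and unfolds substrates, Rpn5 had 1.62, 0.66 and 0.49 at 4 h BPF, against -0.74, -0.61 and -0.39 at 18 h BPF (change 1.50 ± 0.24, adjusted p = 0.000121). Rpn2 and Rpn12 rose by 1.11 ± 0.25 and 1.02 ± 0.20, and Rpn1, Rpn8, Rpt2 and Rpt5 by 0.74 to 0.92. In the catalytic core Prosbeta3, Prosbeta2 and Prosalpha5 rose by 1.11 ± 0.25, 1.01 ± 0.18 and 0.87 ± 0.26. Prosalpha2, Prosalpha3, Prosbeta4 and Prosbeta7 rose by 0.73 to 0.84.

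Over the 18 proteasome genes with a value on all 6 arrays, the median log2 ratio was 0.65, 0.65 and 0.58 on the 4 h BPF arrays, against 0.10, -0.53 and -0.28 on the 18 h BPF arrays. The list medians did not overlap between the stages. Those of all named genes did not overlap either, but by far less, at -0.038 to -0.011 on the 4 h BPF arrays, against -0.103 to -0.057 on the 18 h BPF arrays. Array a of 18 h BPF was the nearest of its stage to the 4 h BPF arrays. The number of calls depended on single arrays: 9 of 24 genes were called without array a of 4 h BPF, 6 of 24 without array b of 18 h BPF, 5 of 18 without array c of 18 h BPF, and 8 and 9 of 22 without arrays b and c of 4 h BPF. With a fit of only the 6 arrays 6 genes were called.

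Autophagy genes rose in part. Of 22 tested genes 7 rose and none fell, against 3.49% of all named genes that rose. The median change of the list was 0.33. Atg7, the E1-like enzyme that activates the conjugation systems of autophagosome growth, had 0.73 and 0.80 on arrays b and c of 4 h BPF, against -0.62, -1.17 and -1.44 at 18 h BPF (change 1.84 ± 0.25, adjusted p = 5.99e-05). Its other tested probe changed by 2.26. Atg1, the kinase that starts autophagy, had -0.04, 1.34 and 0.95 at 4 h BPF, against -0.29, -0.51 and -0.64 at 18 h BPF (change 1.23 ± 0.29, adjusted p = 0.00725). Array a of 4 h BPF lay just above the 18 h BPF arrays for Atg1, while arrays b and c were clearly higher. The lipid transfer gene Atg2 rose by 1.13 ± 0.22 and Atg18b, of the family that binds phosphoinositides, by 1.37 ± 0.37. Atg5, of the conjugation systems, rose by 0.74 ± 0.18, the lipid kinase subunit gene Vps15 by 0.64 ± 0.15, and ref(2)P, the fly relative of the cargo receptor p62, by 0.79 ± 0.22. The other 15 did not pass the test, and the lowest of them was at -0.48. Without array a of 4 h BPF 6 genes were called, against 2 of 13 without array b, 4 of 13 without array c, and 2 with a fit of only the 6 arrays.

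Lysosomal genes moved in both directions, with 2 higher and 4 lower of 21, against 3.49% and 3.08% of all named genes. Npc2a, which carries sterols out of lysosomes, rose by 1.40 ± 0.32, and Sap-r, the saposin precursor that helps to degrade sphingolipids, by 0.77 ± 0.23. Its relative Npc2d fell by 2.02 ± 0.55, and the mannosidase genes LManII and LManIII fell by 1.42 ± 0.19 and 1.92 ± 0.50, beside LManV. LManII had -1.13, -1.68 and -1.19 at 4 h BPF, against -0.37, 0.46 and 0.16 at 18 h BPF. Without array a of 4 h BPF, Sap-r and Npc2d lost the call and Npc2a had too few values to be tested, which left 0 genes higher and 3 lower of 19. The falls numbered 2 without array c of 4 h BPF, without array a or b of 18 h BPF, and under quantile normalization.

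Genes of the vacuolar H+-ATPase, the proton pump that acidifies organelles and parts of the gut lumen, fell. Of 19 tested genes 8 fell and none rose, against 3.08% of all named genes that fell, and the median change was -0.78. Vha100-4, a membrane-sector subunit, had -0.57, 0.43 and -0.03 at 4 h BPF, against 3.21 and 1.43 on arrays a and c of 18 h BPF (change -2.37 ± 0.42, adjusted p = 0.000541). Its other probe changed by -0.94. Vha100-5 and Vha100-2, of the same subunit family, fell by 1.37 ± 0.27 and 1.39 ± 0.43. The accessory subunit genes ATP6AP2 and VhaAC45 fell by 1.01 ± 0.24 and 0.91 ± 0.19. The peripheral-sector genes VhaSFD and Vha68-3 fell by 0.88 ± 0.22 and 0.73 ± 0.20, and the membrane-sector gene VhaPPA1-1 by 0.83 ± 0.22. Vha68-3 lost its call when the probes of a gene were averaged. Over the 14 genes with complete values, the list median was -0.80, -0.53 and -0.28 on the 4 h BPF arrays, against 0.23, 0.34 and 0.17 on the 18 h BPF arrays, with no overlap. Array a of 4 h BPF was the lowest: without it 3 of 18 genes were called, and the median change was -0.68. Without array a or b of 18 h BPF, and with a fit of only the 6 arrays, 5 genes were called.

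Glycolytic genes fell as well. All 12 tested genes had a negative change and 6 passed the test, against 3.08% of all named genes that fell. The median change was -0.75. Gapdh1, glyceraldehyde-3-phosphate dehydrogenase, had -0.91, -1.12 and -0.65 at 4 h BPF, against 0.43, 0.12 and 0.29 at 18 h BPF (change -1.18 ± 0.19, adjusted p = 0.00012). Gpdh1, which links glycolysis to glycerol phosphate, had -0.53, -1.03 and -0.97 at 4 h BPF, against 0.16, 1.16 and 1.26 at 18 h BPF (change -1.70 ± 0.35). Neither gene had overlapping arrays. The hexokinase gene Hex-A fell by 1.24 ± 0.35, the isomerase Pgi by 1.02 ± 0.22, the kinase Pgk by 0.76 ± 0.17 and the mutase Pglym78 by 0.83 ± 0.25. Men, the malic enzyme that makes NADPH, fell further, with -3.08, -2.95 and -3.0 at 4 h BPF, against -1.31, -0.52 and -0.43 at 18 h BPF (change -2.25 ± 0.30, adjusted p = 9.2e-06). Of 12 genes of the citric acid cycle list, Men and the succinyl-CoA synthetase subunit gene ScsbetaG (-0.74 ± 0.21) fell. None of the 46 tested genes of the respiratory chain passed the test, and their changes lay between -0.57 and 0.42. Without array a of 4 h BPF, Hex-A, Pglym78 and ScsbetaG were no longer called, at -0.98, -0.75 and -0.74. Hex-A and Pglym78 also lost the call without array a or b of 18 h BPF, and Pglym78 and Pgk without array b of 4 h BPF.

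**Figure D3:**
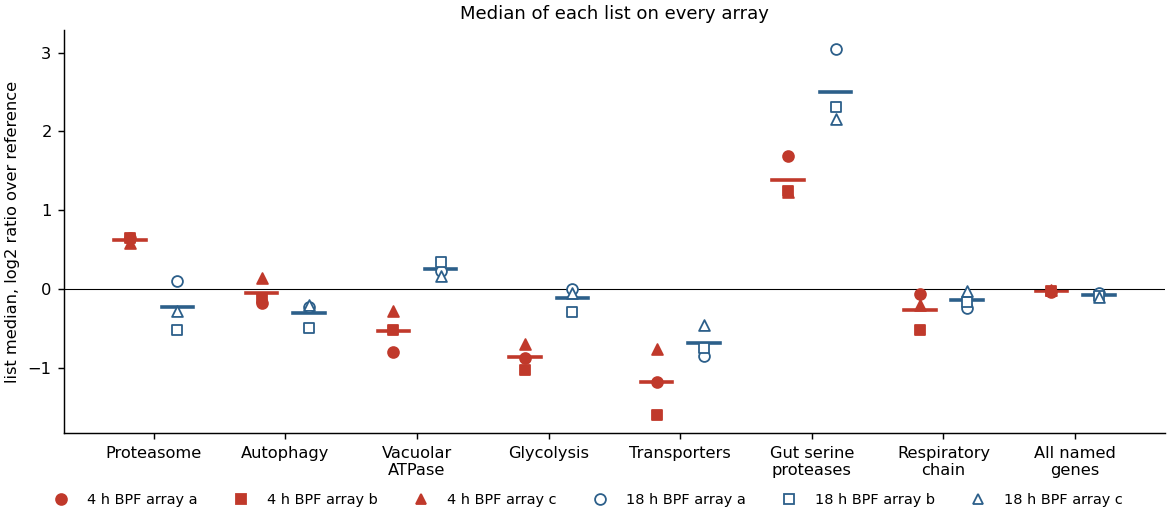
Median log2 ratio over reference (y axis) of the members with a value on all 6 arrays, for 7 gene lists and for all named genes. Filled red symbols are the 4 h BPF arrays, open blue symbols the 18 h BPF arrays and bars the mean of each stage; the stages do not overlap for all named genes, nor for the proteasome, autophagy, vacuolar ATPase, glycolysis and gut serine protease lists, of which autophagy has the narrowest gap (-0.174 against -0.205), and overlap for the transporter and respiratory chain lists.

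Of 21 tested transporter genes of sugars and amino acids 8 fell and none rose, against 3.08% of all named genes that fell. The median change was -0.73. Another 8 had positive changes of up to 0.77 that did not pass, and the list medians of the arrays overlapped between the stages. CG6484, a sugar transporter-like gene, had -4.36, -4.89 and -2.29 at 4 h BPF, against -1.72, -1.03 and -0.67 at 18 h BPF (change -2.71 ± 0.48, adjusted p = 0.000363). CG8785, an amino acid transporter-like gene, had -3.79, -3.73 and -3.29 at 4 h BPF, against -1.35, -1.29 and -1.0 at 18 h BPF (change -2.39 ± 0.27, adjusted p = 6.42e-07). These 2 genes were already below the mixture at 18 h BPF. The nutrient amino acid transporter gene NAAT1 had 0.74 and 0.68 on arrays b and c of 4 h BPF, against 2.49, 1.90 and 2.08 at 18 h BPF, and thus stayed above the mixture. The sugar transporter genes nebu, CG1213 and sut1 fell by 1.48 ± 0.35, 1.27 ± 0.38 and 0.84 ± 0.24. The count was 4 without array a of 4 h BPF, 4 of 18 without array b of 4 h BPF, 5 of 18 without array c of 18 h BPF, 5 under quantile normalization and 4 with a fit of only the 6 arrays.

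Genes of lipid metabolism split, with 2 higher and 6 lower of 23, against 3.49% and 3.08% of all named genes. Beside Agpat2, its relative Agpat3 rose by 0.99 ± 0.28. Acsl, which activates long-chain fatty acids, had -3.22, -1.72 and -1.43 at 4 h BPF, against -0.06, 0.03 and -0.12 at 18 h BPF (change -2.07 ± 0.46, adjusted p = 0.00444). The 4 h BPF arrays were spread, and the 18 h BPF arrays were nearly equal. The acyl-CoA synthetase bgm fell by 1.36 ± 0.27, the desaturase Desat1 by 1.30 ± 0.35, the fatty acid transport gene Fatp1 by 0.90 ± 0.22 and the glycerophosphate acyltransferase gene Gpat4 by 0.73 ± 0.19. Without array a of 4 h BPF, Acsl, Desat1, Fatp1 and Gpat4 lost the call, at -1.53, -0.88, -0.75 and -0.62, and 2 genes were higher and 2 lower of 22. The falls numbered 3 of 19 without array a of 18 h BPF. Agpat3 lost its call without array b or c of 4 h BPF or array a or b of 18 h BPF.

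Of 51 genes of the cytochrome P450 family, which oxidises foreign compounds and steroids, 7 fell and 1 rose, against 3.08% and 3.49% of all named genes. Of the 51 changes 37 were negative, and the median was -0.30. The arrays of 28 did not overlap between the stages, or 54.9%, against 29.9% of all named genes. The falls numbered 5 of 49 without array a of 4 h BPF and 3 of 37 without array c of 18 h BPF, and the rises 0 without array a of 4 h BPF and 4 with a fit of only the 6 arrays. Cyp28a5 fell by 1.83 ± 0.43, and Cyp6a2, a gene known from insecticide resistance, by 1.81 ± 0.37. Cyp9b1 had -1.50, -1.32 and -0.84 at 4 h BPF, against -0.40, -0.02 and 0.31 at 18 h BPF (change -1.18 ± 0.25, adjusted p = 0.00336). The neighbouring family member Cyp9b2 fell by 1.13 ± 0.30, a call that was lost without array a of 4 h BPF (-0.98), and Cyp6d2 rose by 1.23 ± 0.35, a call that was lost without any one of the 18 h BPF arrays. Of 28 glutathione transferase genes GstE3 rose and GstE10 fell (-1.34 ± 0.35), about the share of all named genes (3.49% higher and 3.08% lower). The call of GstE10 was lost without array b or c of 4 h BPF or array a or b of 18 h BPF. It was also lost under quantile normalization and with only the 6 arrays.

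Of 14 tested genes of the oxidative stress list 3 fell and 1 rose, against 3.08% and 3.49% of all named genes. The median change was -0.08. The 3 that fell encode proteins of glutathione synthesis. Gclc, the catalytic subunit of the rate-limiting ligase, had -1.84, 0.25 and 0.28 at 4 h BPF, against 2.70, 1.55 and 1.29 at 18 h BPF (change -2.28 ± 0.44, adjusted p = 0.00143). Its array a was the lowest at 4 h BPF and the highest at 18 h BPF, and the stages did not overlap. Gclm, the regulatory subunit, fell by 1.08 ± 0.25 and the synthetase Gss1 by 0.98 ± 0.20. The other member of the oxidative stress list that was called was Prx3, a mitochondrial peroxiredoxin, at 0.69 ± 0.20, and the call was lost without array a of 4 h BPF (0.56) and also without array c of 4 h BPF or array a or b of 18 h BPF.

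All 28 tested genes of the trypsin and chymotrypsin-like proteases of the gut, which digest dietary protein, had a negative change, but few passed the test. Their median was -1.02, and 3 fell: kappaTry at -2.24 ± 0.67, thetaTry at -2.14 ± 0.50 and Ser6 at -1.11 ± 0.29. For thetaTry, a trypsin gene, the ratios were 0.39, 0.69 and 0.53 at 4 h BPF, against 3.41, 2.44 and 2.18 at 18 h BPF (adjusted p = 0.0067). In 21 of the 28 genes the arrays did not overlap between the stages, against 29.9% of all named genes. Members of these families have near-identical copies, so a probe can read more than 1 gene and the counts do not stand for independent genes. The number of calls depended on the fit: 11 genes passed with only the 6 arrays, 2 of 26 passed without array a of 4 h BPF, and 0 passed without array a of 18 h BPF or under quantile normalization. Over the 17 genes with complete values the list median was 1.68, 1.25 and 1.24 on the 4 h BPF arrays, against 3.05, 2.30 and 2.15 on the 18 h BPF arrays.

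Of the carbohydrate-digesting enzymes 2 of 13 fell: the maltase gene Mal-A2, at -1.80, -2.80 and -1.39 at 4 h BPF, against -0.02, -0.45 and -0.40 at 18 h BPF (change -1.71 ± 0.38), and the glucosidase gene tobi (-1.64 ± 0.32). The amylase genes Amy-d and Amy-p and the related Amyrel changed by -0.01 ± 1.28, 0.00 ± 1.12 and 0.50 ± 0.57. The lysozyme gene LysS fell by 1.96 ± 0.42, the only called gene of 6, whereas LysD and LysB changed by -1.34 ± 0.49 and -1.02 ± 0.60 without passing. The count was 2 with only the 6 arrays or without array c of 18 h BPF, and LysS lost its call under quantile normalization. None of 13 lipase genes passed, 8 of them had positive changes, and the median was 0.09. CG6271 and CG6277 changed by 1.36 ± 0.75 and 1.34 ± 0.57, and mag and CG6296 by -1.93 ± 0.61 and -2.37 ± 0.73 (adjusted p = 0.059 and 0.0509). With only the 6 arrays, or without array b of 4 h BPF, 2 lipase genes were lower. Nuclease-like genes were called in both directions. Besides CG6839, CG3819 had -0.71, 1.12 and 1.45 at 4 h BPF, against 3.22, 3.50 and 2.72 at 18 h BPF (change -2.53 ± 0.40), and CG14120 fell by 1.76 ± 0.35. Sid, a stress-induced DNase, rose, with -0.67, -0.05 and -0.63 at 4 h BPF, against -3.0, -1.43 and -1.80 at 18 h BPF (change 1.62 ± 0.39). Its call was lost without array a of 18 h BPF, and those of CG3819 and CG14120 under quantile normalization. CG14118 and CG12917 changed by -0.37 ± 0.30 and 0.11 ± 0.35.

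Among 14 ecdysone receptors and response regulators, EcR passed the test and no other, against 6.57% of all named genes. The list genes Eip74EF, Eip75B, Hr4, gce and crol had no probe matched to them and were not tested. EcR, the ecdysone receptor gene, had values only on arrays b and c of each stage, 1.83 and 0.47 at 4 h BPF, against -0.37 and -0.24 at 18 h BPF (change 1.45 ± 0.36, adjusted p = 0.0192). The 4 h BPF arrays were above the 18 h BPF arrays but differed widely from each other. The call was lost with a fit of only the 6 arrays, and without any one of these 4 arrays the gene had too few values to be tested. Its partner usp changed by -0.44 ± 0.26 and the coactivator gene tai by 0.88 ± 0.28. The transcription factor genes br, Eip93F, Hr39 and ftz-f1 changed by 0.20 ± 0.25, 0.34 ± 0.52, 0.58 ± 0.27 and -0.31 ± 0.35. The nuclear receptor genes Hr3, Hr38, Hr78 and Hnf4 changed by 0.34 ± 0.40, -0.28 ± 0.26, 0.42 ± 0.18 and -0.25 ± 0.18, and Blimp-1, a repressor that times ecdysone responses, by 0.21 ± 0.28. Met, a juvenile hormone receptor gene, and Kr-h1, its target, changed by -0.12 ± 0.31 and 0.11 ± 0.28. The ecdysteroid-handling genes shd, Cyp18a1, dib and Npc1a lay between -0.25 and 0.14. Among 11 further genes known to be induced by ecdysone, ImpL2, a secreted insulin-binding protein gene, rose by 0.90 ± 0.25 with overlapping arrays, a call lost without array b or c of 4 h BPF or with only the 6 arrays.

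Of 10 tested cell death genes 1 rose and 1 fell, against 3.49% and 3.08% of all named genes. The list genes rpr, hid, Diap1, Drice and Decay had no probe matched to them and were not tested. Buffy, a Bcl-2 family gene, had 0.81, 0.40 and 0.45 at 4 h BPF, against -1.16, -1.45 and -0.82 at 18 h BPF (change 1.70 ± 0.26, adjusted p = 0.000243). Damm, a caspase gene, had 0.54, 0.28 and 0.82 at 4 h BPF, against 2.20, 1.50 and 1.53 at 18 h BPF (change -1.20 ± 0.23, adjusted p = 0.00112), while its other probe changed by -0.30 and the call was lost under quantile normalization. The arrays of the stages did not overlap for either gene. The initiator caspase genes Dronc and Dredd changed by -0.48 ± 0.47 and -0.29 ± 0.21, the caspase genes Dcp-1 and Strica by 0.00 ± 0.25 and -0.14 ± 0.37, and the Bcl-2 family gene Debcl by 0.56 ± 0.23. Changes of the inhibitor genes Diap2 and Bruce and of the death gene grim were between -0.18 and 0.22. None of these 8 passed the test.

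Genes of cytosolic ribosomes, ribosome assembly and DNA replication did not pass. Of 23 ribosomal protein genes 20 had positive changes, with a median of 0.20, and the largest, RpL15, was 0.65 ± 0.29. The 17 ribosome biogenesis genes had a median of 0.36, led by Polr1B (0.63 ± 0.28), and the 19 replication and cell cycle genes a median of 0.15, led by PCNA (0.80 ± 0.28, adjusted p = 0.101). Leaving out array b of 4 h BPF, or array a or c of 18 h BPF, gave 1 called replication gene. Of 15 tRNA synthetase genes GluProRS alone rose (0.75 ± 0.21), against 3.49% of all named genes. Its call was lost without array c of 4 h BPF, under quantile normalization and with only the 6 arrays. The gene had too few values without array a or c of 18 h BPF. Among 22 genes of the endoplasmic reticulum 1 rose and 2 fell, against 3.49% and 3.08% of all named genes. The glycosylation gene Stt3A rose by 0.79 ± 0.23. The chaperone cofactor Sil1 and the oxidase Ero1L fell by 0.63 ± 0.19 and 0.55 ± 0.17. The calls of Stt3A, Sil1 and Ero1L were lost without array a of 4 h BPF, at 0.81, -0.59 and -0.42, and also without array b of either stage.

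Some single genes of other lists were called. PGRP-LA, of the peptidoglycan recognition family, rose by 1.21 ± 0.26, the only one of 12 immune genes, against 3.49% of all named genes. The metal transporter gene Mvl rose by 1.13 ± 0.29 and egr, which encodes the fly tumour necrosis factor, by 0.93 ± 0.21. SPARC, which encodes a collagen-binding matrix protein, had -3.24, -4.55 and -3.18 at 4 h BPF, against -2.82, -2.19 and -1.78 at 18 h BPF (change -1.39 ± 0.31). The protease inhibitor genes Spn42Da and Spn55B fell by 1.14 ± 0.24 and 1.03 ± 0.23, and l(2)efl, of the small heat shock family, by 1.31 ± 0.36. The call of l(2)efl was lost without array a or c of 4 h BPF or array b of 18 h BPF, that of Mvl without array c of 4 h BPF or array b of 18 h BPF, and that of SPARC without array b of 4 h BPF. Under quantile normalization these 3 genes and both protease inhibitor genes lost the call, and with only the 6 arrays Mvl, SPARC and egr did. When array a of 4 h BPF was left out, another heat shock gene was higher. None of 14 peritrophic matrix genes passed, of which Muc55B had the largest change (-1.37 ± 0.61).

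Few markers of cell types passed the test. Of 6 enterocyte and 9 enteroendocrine markers 0 passed the test in limma, with medians of -0.22 and -0.07. The progenitor transcription factor gene esg rose, at 0.14, 0.69 and 0.54 at 4 h BPF, against -0.69 and -0.52 on arrays a and c of 18 h BPF (change 1.06 ± 0.30, adjusted p = 0.0289), and shg and mira changed by 0.82 ± 0.58 and 0.28 ± 0.23. The call of esg was lost without array b or c of 4 h BPF, and the gene had too few values to be tested without array a or c of 18 h BPF. Of 8 visceral muscle markers the myosin light chain genes Mlc2 and Mlc1 fell by 1.68 ± 0.30 and 1.11 ± 0.28, and the list ran from -1.68 to 0.47. Mlc1 lost its call without array a of 18 h BPF. Neither gene had a value on array a of 4 h BPF, and both had too few to be tested without array b or c of that stage. Of the markers of fat body (3), salivary gland (4), haemocytes (6), Malpighian tubule (4) and trachea (5) none passed, with list medians between -0.21 and 0.39, although 1 tracheal marker was higher without array a of 4 h BPF. The fat body gene Fbp1 was scattered, at -0.80, -2.01 and 1.39 at 4 h BPF, against -2.17, -0.45 and -0.66 at 18 h BPF. The part of other tissues or of changed cell proportions in the differences above was not tested.

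**Figure D4:**
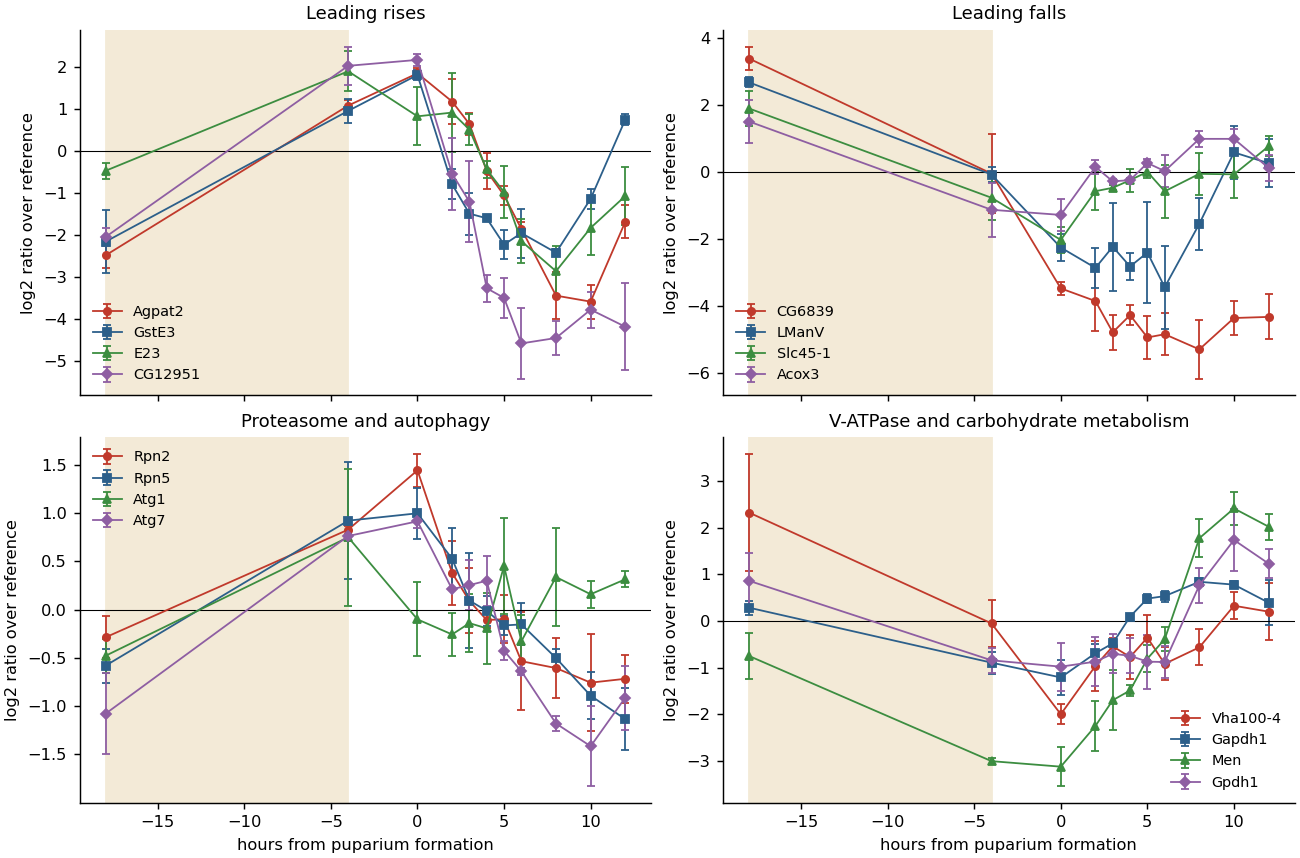
Mean log2 ratio over reference (y axis, error bars SD) against hours from puparium formation (x axis, negative before it) for 16 genes in 4 panels. Points rest on 1 to 3 arrays per stage, and Atg7 at 2 h after puparium formation has 1 array and no error bar. The shaded band is the interval from 18 h to 4 h before puparium formation; Men stands at -0.75 at 18 h BPF, -3.01 at 4 h BPF and 2.02 at 12 h after puparium formation.

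The step from 4 h BPF to 0 h was set beside this one. It had 315 called probes of 10171 (3.1%), or 576 in a fit of only its 6 arrays with the replicate letter as a block, since arrays of the same letter deviated together at these stages. Both steps share the 4 h BPF arrays, which enter the first step with a plus sign and the second with a minus sign. In the fit of all arrays without the block the proteasome list, with 14 rising genes and a median of 0.76 up to 4 h BPF, had 0 called genes and a median of 0.33 in the next step. The vacuolar ATPase list had 8 falling genes and a median of -0.78 first and 1 falling gene and a median of -0.16 next, and the glycolysis list 6 falling genes and -0.75 first and 0 falling, 1 rising gene and -0.10 next. The gut serine proteases had 3 of 28 lower and a median of -1.02 first and 11 of 28 lower and a median of -2.10 next. In the second step 5 of 6 lysozyme genes and 4 of 11 lipase genes fell. With the replicate letter as a block and only its 6 arrays, the second step had 0 called proteasome genes (median 0.31), 1 falling vacuolar ATPase gene, 2 rising glycolysis genes, and 19 of 28 gut serine protease, 3 of 6 lysozyme and 10 of 11 lipase genes lower. Whether a list as a whole differed between the steps was not tested.

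The difference between the steps was tested gene by gene. Of 9842 probes 79 (0.803%) had a first step that differed from the second, 44 of them with the first step higher and 35 with it lower. CG12951 rose by 4.07 and then changed by 0.14 (difference 3.93, adjusted p = 0.00957), and Agpat2 by 3.56 and then 0.77 (difference 2.79, adjusted p = 0.00194). E23 and EcR rose and then changed by -1.07 and -1.75 (differences 3.44 and 3.20, adjusted p = 0.0238 and 0.0166). The 3 largest differences in the other direction were those of CG8249, a sugar transporter-like gene that changed by -0.85 and then 3.40 (difference -4.25, adjusted p = 2.57e-07), CG17029, an inositol monophosphatase-like gene at -2.36 and 1.32 (difference -3.68), and CG15255, an astacin-type metalloprotease gene at -1.77 and 1.54 (difference -3.30). Under quantile normalization the first change of CG8249 was 0.22. The calls of CG12951 and PGRP-SC2 were lost without array a and that of E23 without array b of 4 h BPF, that of EcR with only the 9 arrays, and those of E23 and CG15255 under quantile normalization. PGRP-SC2, a peptidoglycan-degrading amidase gene, changed by 0.10 and then -3.36 (difference 3.46, adjusted p = 0.0108). The count was 32 without array a and 29 without array b of 4 h BPF, 52 and 51 without arrays b and c of 18 h BPF, and 47 with a fit of only the 9 arrays. With the replicate letter as a block it was 89 in the fit of all arrays and 84 with only the 9 arrays.

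The later courses of the called genes are given as a description, because the first 2 stages chose the genes. The medians of the higher and the lower genes crossed between 5 h and 6 h after puparium formation, at 0.04 and -0.16 for the higher and -0.13 at both hours for the lower genes. The median of the 302 higher genes was -0.57 at 18 h BPF, 0.47 at 4 h BPF, 0.63 at 0 h, 0.11 at 4 h and -0.30 at 12 h after puparium formation. The median of the 266 lower genes was 0.85 at 18 h BPF, -0.36 at 4 h BPF, -0.80 at 0 h, -0.35 at 4 h and 0.10 at 12 h. Of 301 higher genes with a mean at every stage, 61 had their highest mean at 4 h BPF and 132 at 0 h. Of 260 such lower genes, 138 were highest at 18 h BPF and 107 at 8, 10 or 12 h, and 82 were lowest at 0 h. At 12 h, 120 of the 302 higher genes were at or below their 18 h BPF level, and 83 of the 266 lower genes were at or above theirs.

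**Figure D5:**
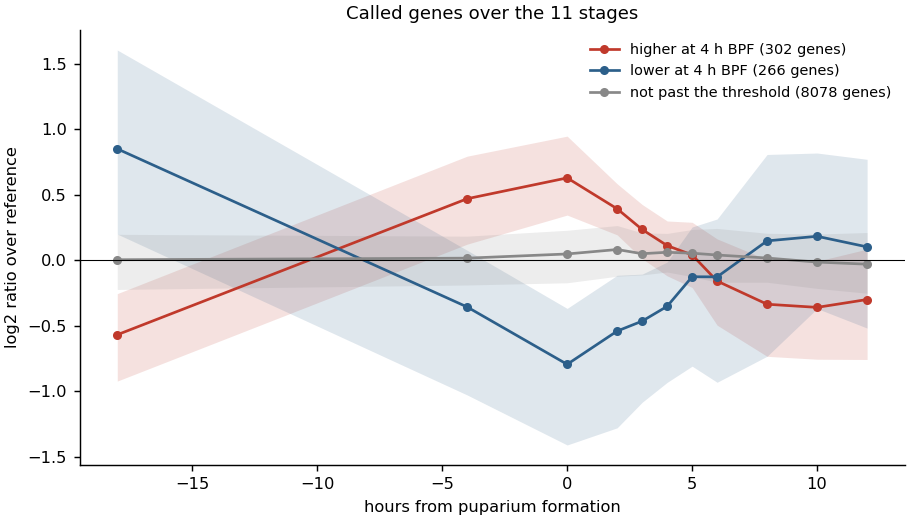
Median log2 ratio over reference (y axis, bands spanning the lower to the upper quartile of genes) against hours from puparium formation (x axis) for genes called higher, genes called lower and genes not called at 4 h BPF. The first 2 stages separate the groups because the calls were made there; the medians cross zero again between 5 h and 8 h after puparium formation.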

How the data were processed

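Midgut RNA of 11 stages was measured on 33 two-colour arrays, and 6 of them enter the comparison of 4 h BPF with 18 h BPF. Per the labels, RNA was amplified by in vitro transcription, and each stage sample (Cy5) was hybridised against a mixture of 10 stages (Cy3). The deposited values are log2 ratios, 1 per probe and array, made by the authors. How the background was corrected, how the arrays were normalized and why values are missing is not given in the sources used here. The logarithm's base and sign were inferred. With base 2 and stage over reference, the log2 of the mean ratio over the 10 pooled stages had an SD of 0.117 over 7257 probes, against 0.509 for the opposite direction and 0.204 and 0.792 for natural logarithms. Intensities were not used. Precision is limited by how many arrays there were.

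Values were used as deposited. All 33 arrays entered 1 linear model of 11 stage means with moderated variances (limma 3.58.1, statmod 1.5.0, R 4.3.3). Probes with at least 2 values at each stage compared were tested, and p-values were adjusted over all of them by the Benjamini-Hochberg method at 0.05. Changes are differences of stage means with their SE. Simulated data had the missing values of these 12180 probes. Log2 changes of 0.5, 1 and 2 were recovered in 4.5%, 50.7% and 93.9% of 67, 67 and 66 probes, with 3 false calls. Only these probes were changed, and errors were independent with 1 SD per probe. The real data had 751 calls and arrays of unequal spread, so these rates need not hold for them. Tables and figures used Matplotlib 3.10.9, NumPy 2.4.6 and pandas 2.3.3 under Python 3.11.15.

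Of the probes with a value, 10824 matched 1 gene through the platform annotation and RefSeq's genes of the assembly Release 6 plus ISO1 MT, from which no coordinates were taken, 4 carried a platform symbol only, 227 matched several genes and 3009 were not in the annotation. A gene was represented by its probe with the most values. Of 953 list symbols 686 were on the array. Named genes were the 15 largest rises and 15 largest falls among called genes with no overlap between stages, up to 4 called genes per direction of each list, up to 2 uncalled ones where a list had fewer than 2 calls, all members of 4 lists (ecdysone regulators, ecdysteroid handling, cell death, nuclease-like) and the 3 largest differences of the steps in each direction. Other genes of the lists that are named were chosen after their values were seen. The arrays, lists and rules were chosen with earlier results of these data known.

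The labels do not say that a replicate letter marks a shared batch. Deviations from the stage means correlated at 0.70, 0.56 and 0.48 between same-letter arrays of 4 h BPF and 0 h, each array doing so best with its own letter. The letters were therefore treated as pairs for that step only, and its counts with a replicate block are given beside those of the fit of all arrays. The difference of the steps uses these arrays too. Its p-values come from the fit without a block, and its counts with a block are given. Alternatives were other normalizations, filters, sets of arrays, a replicate block, and each array left out in turn. Promoter motifs and sequences were not used here.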

Additional observations from a re-analysis of the deposited data

How the results depend on the processing

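The comparison of 4 h BPF with 18 h BPF kept its count of 751 called probes within 1.5 times under each of the 15 alternatives. The range was 506 to 614 when single arrays were left out (lowest without array b and highest without array c of 4 h BPF), and 532 (only the 6 arrays, with a replicate block) to 864 otherwise. The fit of all arrays with the replicate block gave 864 calls. Same-letter deviations of these 2 stages correlated at 0.15, -0.04 and 0.25. Arrays a and c of 4 h BPF deviated most like their own letter, though weakly, and array b did not. The letters were therefore not treated as pairs here. A fit of only the 6 arrays called 538 probes, of which 237 were higher and 301 lower, or 44.1% higher, against 54.5% in the fit of all arrays; 440 probes were called in both. Of 98 called named genes, 46 stayed called under every alternative that gave a value, and of 2358 gene values 172 lost a call and 28 gained one. The direction reversed once for a called gene, CG8249, at 0.22 under quantile normalization. The sign also turned in 25 values of genes called in neither fit. The step from 4 h BPF to 0 h, with 315 calls, had 576 with only its 6 arrays and a replicate block, 478 with arrays scaled to equal spread, and 155 to 338 without single arrays. A fit of only its 6 arrays without the block called 287, 28.9% of them higher, against 51.7%. The difference of the steps, with 79 calls, had 47 with only the arrays of the 3 stages, 127 with equal spread, and 29 to 105 without single arrays. Equal spread and the block on the compared arrays were added after the data were seen. The causes were not tested. In the simulated data, with few changed probes and independent errors, most changes of 0.5 on the log2 scale were not detected.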

Other observations

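Several groups outside the gene lists contained many called genes. They were picked after their values were seen, so their counts only describe these arrays. Of 11 genes of the p97 segregase, its adaptors and ubiquitin shuttles, 8 were higher at 4 h BPF than at 18 h BPF and none lower, with a median change of 0.96 on the log2 scale. TER94, the p97 ATPase that extracts ubiquitin-tagged proteins, rose by 1.01 ± 0.29 (SE), its cofactor gene Ufd1 by 1.17 ± 0.26 and the shuttle gene Rad23 by 1.06 ± 0.27. The deubiquitinase gene Usp5 rose by 0.96 ± 0.22. The count was 7 without array a of 4 h BPF, and 4 to 7 without single arrays. Of 14 genes of the ESCRT complexes, which sort ubiquitin-tagged membrane proteins into multivesicular bodies, 5 were higher, led by Hrs (1.40 ± 0.21, adjusted p = 3.24e-05). Only Hrs kept its call without array a of 4 h BPF.

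Some genes of amino acid metabolism and glucose synthesis were lower. The phosphoenolpyruvate carboxykinase genes Pepck1 and Pepck2 fell by 1.81 ± 0.41 and 1.60 ± 0.29, glutamate dehydrogenase (Gdh) by 1.23 ± 0.25, and the aspartate transaminases Got1 and Got2 by 1.22 ± 0.21 and 0.94 ± 0.23. Argl, argininosuccinate lyase, fell by 1.97 ± 0.33. Gs1, Gs2, Oat, slgA, P5CDh1 and Sardh of the chosen amino acid set did not pass, at 0.69, 1.48, 0.19, -0.09, -0.15 and -0.35. In that set 7 of 14 genes were lower, and 1, Shmt, which makes glycine from serine, was higher (1.61 ± 0.34). Without array a of 4 h BPF 5 of 13 were lower and 2 higher, and 4 were lower without array c of 4 h BPF or array b or c of 18 h BPF. Got2 lost its call without array a of 4 h BPF or b of 18 h BPF, and Pepck1 without array a of 18 h BPF. Got1 had values only on arrays b and c of each stage. Sphingolipid genes moved in opposite directions, 3 higher and 5 lower of 13. Cerk, the alkaline ceramidase gene bwa and the sphingosine kinase gene Sk1 rose by 2.01 ± 0.27, 1.21 ± 0.37 and 1.19 ± 0.29. The other sphingosine kinase gene, Sk2, fell by 1.01 ± 0.19, the neutral ceramidase gene CDase by 1.68 ± 0.33, and the fatty acid 2-hydroxylase gene Fa2h by 2.10 ± 0.38. Without array c of 18 h BPF only 1 of 9 sphingolipid genes was higher and 4 were lower. Of 9 carbonic anhydrase genes CAH1, CAH3 and CAH7 fell by 1.51 ± 0.24, 1.05 ± 0.25 and 1.61 ± 0.29, and the other 6 lay between -0.31 and 0.20. CAH3 lost its call without array a of 4 h BPF. Of 12 genes of the juvenile hormone binding protein family, Jhbp1 and Jhbp2 rose by 1.90 ± 0.44 and 1.56 ± 0.45. Jhbp2 lost its call without any one of the 4 h BPF arrays, and neither gene was called without array a of 18 h BPF.

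Some probes had values at only 1 of the stages. At 4 h BPF 10 probes had at least 2 values and none at 18 h BPF, and 18 probes had the reverse pattern.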
